A study of Rattus norvegicus with 6 samples.

Results

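The genes of 4 families of extracellular proteases and their inhibitors were followed in neonatal rat ovaries after LPS exposure: the matrix metalloproteinases (Mmp), the membrane-bound disintegrin metalloproteinases (Adam), the secreted disintegrin metalloproteinases with thrombospondin motifs (Adamts), and the tissue inhibitors of metalloproteinases (Timp). Members were taken by gene symbol, as Mmp, Adam, Adamts or Timp followed by a number, and 1 probe stood for each gene, the one with the highest mean signal over the 6 arrays. This gave 51 genes of the 15154 that could be named on the array, with 21 Mmp, 17 Adam, 9 Adamts and 4 Timp genes, on 58 probes. Female Wistar pups had received 0.05 mg/kg LPS from Salmonella enterica by intraperitoneal injection on PNDs 3 and 5, or the same volume of saline on the same days, and whole ovaries were taken from both groups on PND 7. RNA of 3 LPS and 3 saline samples was hybridized to 1 single-colour array each. Which of the few animals and litters of each treatment lay behind an array is not given in the labels, so p-values measure only the spread between these samples.

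Matrix metalloproteinases are zinc-dependent enzymes, made as inactive precursors, that cut collagens, basement membrane and other matrix proteins, and Timps block them by binding the active site. Adam proteins sit in the cell membrane, where the catalytic ones release growth factors and cytokine receptors from the cell surface, while several others lack enzyme activity and serve in adhesion or sperm function. Adamts enzymes are secreted and cut proteoglycans such as versican and aggrecan or process procollagens. In the neonatal ovary germ cell nests break up into follicles enclosed by a basement membrane, and in the adult ovary these families take part in follicle growth, ovulation and luteal regression. LPS, a cell wall lipid of Gram-negative bacteria, signals through Toll-like receptor 4, and in macrophages it is a classical inducer of several Mmp genes through AP-1 and NF-kappaB factors.

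The letters before the start of 4 Mmp genes are shown because these genes lie in 1 row of Mmp genes on chromosome 8 and behaved differently on the arrays. In the reference annotation 10 Mmp genes follow each other there without another protein-coding gene between them, in the order Mmp13, Mmp12, Mmp1b, Mmp3, Mmp1, Mmp10, Mmp8, Mmp27, Mmp20 and Mmp7, and 9 of them were measured. The 250 bases before the start of each gene, from RefSeq on GRCr8, plus strand, were chr8:12866402-12866651 for Mmp12, chr8:13132793-13133042 for Mmp7, chr8:12782579-12782828 for Mmp13 and chr8:13008640-13008889 for Mmp8. The 4 were chosen after their values and letters had been seen. Capitals mark a TATA box (TATAAA) or an AP-1 motif (TGANTCA), searched on both strands.
Mmp12: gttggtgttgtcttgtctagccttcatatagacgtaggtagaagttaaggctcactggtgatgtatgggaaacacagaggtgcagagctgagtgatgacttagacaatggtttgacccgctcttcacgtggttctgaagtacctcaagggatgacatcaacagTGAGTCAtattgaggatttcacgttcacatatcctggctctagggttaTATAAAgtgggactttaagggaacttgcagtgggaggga
Mmp7: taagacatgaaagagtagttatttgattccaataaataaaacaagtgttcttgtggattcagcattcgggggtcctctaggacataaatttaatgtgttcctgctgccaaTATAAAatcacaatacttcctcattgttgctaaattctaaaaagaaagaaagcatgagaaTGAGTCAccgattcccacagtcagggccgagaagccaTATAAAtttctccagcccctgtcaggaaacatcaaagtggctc
Mmp13: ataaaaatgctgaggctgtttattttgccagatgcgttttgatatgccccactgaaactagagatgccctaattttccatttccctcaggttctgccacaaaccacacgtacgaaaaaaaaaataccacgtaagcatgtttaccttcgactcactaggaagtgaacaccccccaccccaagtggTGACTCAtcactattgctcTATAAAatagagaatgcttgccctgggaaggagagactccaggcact
Mmp8: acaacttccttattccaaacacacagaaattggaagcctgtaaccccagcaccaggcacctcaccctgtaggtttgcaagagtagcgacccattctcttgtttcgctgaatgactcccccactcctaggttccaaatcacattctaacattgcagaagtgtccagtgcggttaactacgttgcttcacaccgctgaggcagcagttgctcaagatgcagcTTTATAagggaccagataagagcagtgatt
Mmp12 carried the AP-1 letters 87 bases and the TATA box 39 bases before the start. In Mmp7 they lay 80 and 43 bases before it, with another TATA box 140 bases before it, and in Mmp13 66 and 47 bases before it. Mmp8, whose product is the collagenase of neutrophils, had no AP-1 match. Its TATA match, 30 bases before the start, lay on the opposite strand and is printed as TTTATA. Over a window of 300 bases, 250 before and 50 after the start, 33 of the 51 genes had an entry in the promoter table. The TATA box was found in 8 of the 9 measured genes of the chromosome 8 row and in 5 of the other 24, against 14.3% of all 27457 promoters. The AP-1 motif was found in 7 of the 9 and in 1 of the other 24, which was Adam19, against 7.33% of all promoters. Mmp1, Mmp3, Mmp10 and Mmp20, also of the row, had both motifs in this window. None of them was well above background on any array, so the 4 genes shown do not represent the row. A kappaB motif (GGNNTTTCC) was found in 1 gene, Adam30, and an NR5A motif (AAGGTCA) in none, against 6.03% and 4.37% of all promoters. A match describes letters only and shows no bound factor.

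Signal was well above background on all 6 arrays for 27 of the 51 genes, on some of them for 6 (Mmp9, Mmp12, Mmp13, Adam23, Adamts4 and Adamts18) and on no array for 18. Values are log2 processed signals from which the 75th percentile of their array was subtracted, so 0 is that percentile, and levels are compared between arrays for 1 gene and not between genes. The genes on no array included the stromelysins Mmp3 and Mmp10, the neutrophil collagenase Mmp8, the interstitial collagenase Mmp1, the enamel protease Mmp20, and the sperm genes Adam2, Adam3a, Adam5 and Adam32. Of the chromosome 8 row, only Mmp7 was well above background on all 6 arrays, Mmp12 was so on 2, Mmp13 on 1, and the other 6 measured genes on none. All 7 measured oocyte markers and 5 of 6 granulosa markers had signal above background on every array.

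No member reached a 2-fold higher signal with LPS at an unadjusted p under 0.05, a criterion met by 0.594% of all named genes. One member, Mmp12, was 2-fold lower at that criterion, against 1.17% of all named genes. An unadjusted limma p under 0.05 with no limit on the fold was reached by 14 members, 2 higher and 12 lower with LPS, against 15.6% of all named genes. After Benjamini-Hochberg adjustment over all probes 0 members and 0% of named genes remained, the smallest adjusted p of a member being 0.271. In 15 members the treatments did not overlap, 2 with LPS above and 13 with LPS below, against 23.3% of all named genes in either direction. With 3 arrays against 3 an exact permutation test of 1 gene cannot give a p below 0.1.

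**Figure D1:**
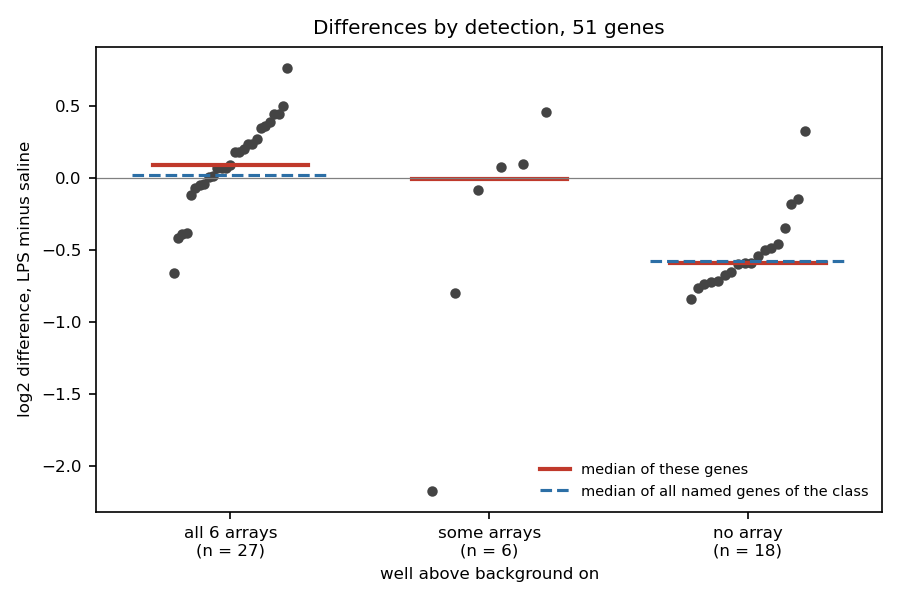
Difference in log2 signal, LPS minus saline, of each of the 51 genes (points, in order of size within a class), split by the number of arrays on which the gene was well above background. Red lines are medians of these genes and dashed blue lines are medians of all named genes of the class. The 18 genes on no array lie around a median of -0.59, next to -0.58 for all such genes, and the 27 on all arrays around 0.09.

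Most of the lower members lay under the background of the arrays. Of the 18 members on no array, 9 had an unadjusted p under 0.05, all lower with LPS, against 51.9% of all named genes on no array. In 11 of the 18 all LPS arrays were below all saline arrays, against 61.2% of such genes. Their median difference was -0.59, and that of all named genes on no array was -0.58. Adam2, a sperm-egg adhesion gene, shows the form of these values. On replicates 1 to 3 it read -7.11, -7.14 and -7.61 with LPS and -6.42, -6.46 and -6.80 with saline. Mmp8 read -6.71, -7.00 and -7.49 with LPS and -6.82, -6.32 and -6.68 with saline. No fold is given for genes of this class, as neither treatment was well above background.

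Among the 27 members on all 6 arrays, 2 had an unadjusted p under 0.05, Adamts5 higher and Timp4 lower, against 4.66% of named genes of that class. In 1 of the 27, Adamts5, every LPS array lay above every saline array, against 5.88%, and in 0 every LPS array lay below, against 6.88%. The difference was positive in 19 of the 27, against 53.6% of named genes of the class, and the median was 0.09 beside 0.02. Members share the arrays, so these counts describe them and test nothing.

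**Figure D2:**
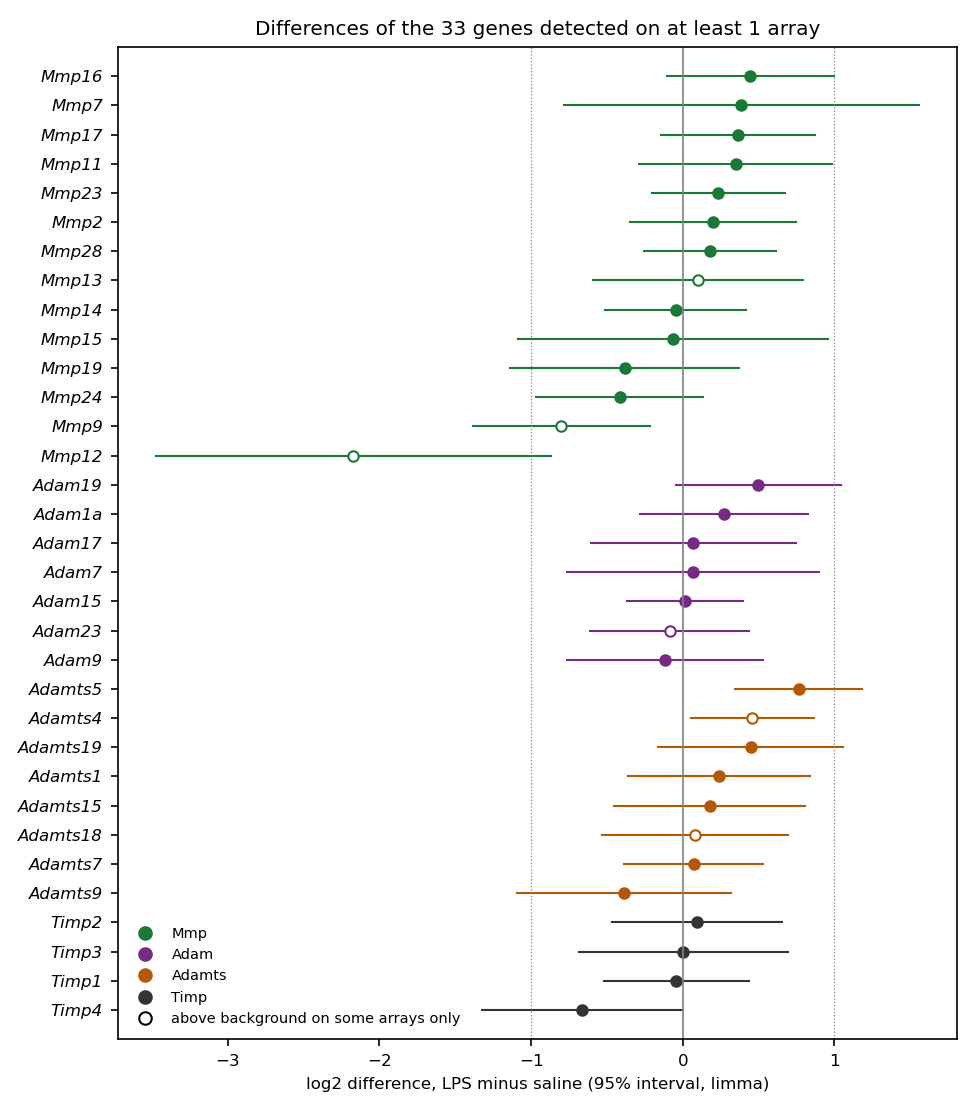
Difference in log2 signal, LPS minus saline, with its 95% interval from limma, for the 33 genes detected (well above background) on 1 array or more. Colours mark the families, filled points are genes above background on all 6 arrays, and dotted lines mark 2-fold. The intervals of Adamts5, Adamts4, Timp4, Mmp9 and Mmp12 leave out 0, and that of Timp4 ends at -0.0023.

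Of the 51 members, 2 were higher with LPS at an unadjusted limma p under 0.05, Adamts5 and Adamts4, against 371 of 15154 named genes. Both are aggrecanases, as are Adamts1, Adamts9 and Adamts15, which had no such p. Adamts5 encodes a main aggrecan- and versican-cutting enzyme of cartilage and other tissues. It read -2.27, -2.15 and -1.87 with LPS and -2.85, -2.81 and -2.92 with saline. All 3 LPS values were above all 3 saline values, and the saline values lay close together, with a mean of -2.86 ± 0.055 (SD, n = 3) against -2.09 ± 0.21 with LPS. The difference was 0.76 (SE 0.18, 95% interval 0.34 to 1.18), or 1.70-fold, with a limma p of 0.00379 and an adjusted p of 0.271. It stayed between 0.65 and 0.85 when any single array was left out, fell to 0.45 with normexp background correction, and was 0.59 (limma p of 0.0512) with the slide row as a block. Its saline values on replicates 2 and 3, the arrays with adrenal transcripts described next to Timp4, lay on either side of that of replicate 1, and without both arrays the difference was 0.76 (limma p of 0.051).

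Adamts4, an inducible aggrecanase, read -4.05, -4.11 and -4.24 with LPS and -4.44, -4.59 and -4.75 with saline. The treatments did not overlap, but the gene was well above background on 4 arrays, the 3 LPS arrays and saline replicate 1. The difference was 0.46 (SE 0.17), or 1.38-fold, with a limma p of 0.0313 and an adjusted p of 0.278. With normexp background correction it was -0.025, so its direction was not kept there. The p rose above 0.05 with the slide row as a block (0.0693), with an intensity trend and robust variances (0.0985), and without LPS replicate 1 or 2 or saline replicate 2 or 3 (0.0723 to 0.102). Without both saline replicates 2 and 3 the difference was 0.31 (limma p of 0.281). Adamts1, which follicles need for growth and ovulation and which lies next to Adamts5 on chromosome 11, read 0.26, 0.83 and 1.07 with LPS and 0.34, 0.67 and 0.43 with saline. Its treatments overlapped, with a difference of 0.24 (SE 0.25) that ranged from 0.063 to 0.47 when 1 array was left out.

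No other Adamts gene on all 6 arrays had an unadjusted p under 0.05 with all arrays in the fit. Adamts15 read 0.71, 0.52 and 0.41 with LPS and 0.91, 0.11 and 0.088 with saline, a difference of 0.18 (SE 0.26). Adamts9, which cuts versican in developing tissue, read -0.72, -0.79 and -0.67 with LPS and -0.89, 0.24 and -0.37 with saline. Its difference was -0.39 (SE 0.30), and only saline replicates 2 and 3 were above the LPS values. Adamts19, a member with few known substrates that is expressed in the embryonic gonad, read -2.17, -2.02 and -1.76 with LPS and -1.95, -2.71 and -2.62 with saline, a difference of 0.45 (SE 0.25, limma p of 0.125). Without saline replicate 1 Adamts19 was 0.69 (limma p of 0.0154) and Adamts9 -0.66 (0.0324). Without both saline replicates 2 and 3 they were -0.030 and 0.17. Adamts7 and Adamts18 also overlapped between treatments, and Adamts12 was well above background on no array.

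**Figure D3:**
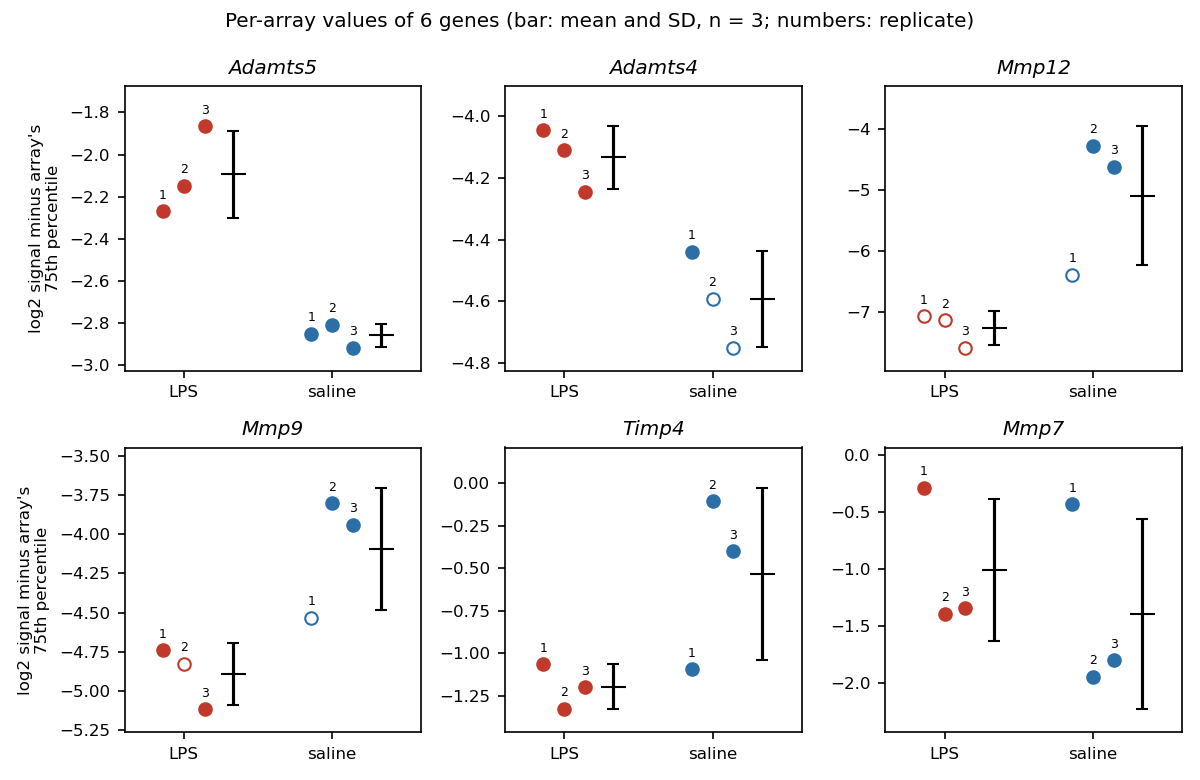
Log2 signal minus the array's 75th percentile for 6 genes, by treatment, with the replicate number at each point. Filled points are arrays on which the gene was well above background, open points the others, and bars give mean and SD (n = 3). The LPS and saline values of Adamts5, Adamts4, Mmp12 and Mmp9 do not overlap, Timp4 and Mmp9 are highest on saline replicates 2 and 3, and Mmp7 is highest on replicate 1 of both treatments.

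Of the 4 inhibitors, Timp1, Timp2 and Timp3 had differences near 0 and Timp4 was lower with LPS. Timp1, the inducible inhibitor that gonadal cells secrete, read 2.65, 3.22 and 3.04 with LPS and 2.95, 2.99 and 3.10 with saline. Timp2, which also takes part in activating pro-Mmp2, read 3.99, 4.24 and 4.19 with LPS and 4.41, 4.10 and 3.64 with saline. Timp3, which is bound to the matrix and also blocks Adam and Adamts enzymes, read -1.47, -1.26 and -0.99 with LPS and -1.81, -0.86 and -1.07 with saline. The treatments overlapped in all 3 of these genes. Their differences were -0.044 (95% interval -0.52 to 0.43), 0.093 (-0.47 to 0.65) and 0.0048 (-0.69 to 0.70), so that a 2-fold change in either direction lay outside each interval.

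Timp4, the inhibitor with the most restricted tissue range, read -1.06, -1.33 and -1.20 with LPS and -1.09, -0.11 and -0.40 with saline. Saline replicate 1 lay among the LPS arrays, and saline replicates 2 and 3 were above all others. The difference was -0.66 (SE 0.28), or 1.58-fold lower, with a limma p of 0.0494 and an adjusted p of 0.302. A second Timp4 probe gave -0.66 as well, with LPS values of -1.28, -1.53 and -1.43 and saline values of -1.24, -0.42 and -0.60. The p rose above the threshold with the replicate number as a block (0.0694), with the slide row as a block (0.235), with ordinary in place of moderated variances (0.093), without normalization (0.546, at -0.29), and without any 1 array other than saline replicate 1, and it was 0.05 when scaled to the median of detected probes. Without saline replicates 2 and 3 the difference was -0.10 (limma p of 0.705).

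Those 2 saline arrays also carried transcripts of the adrenal gland. The mean log2 value of 6 adrenal cortex markers was 3.69 and 3.72 on saline replicates 2 and 3 and between -5.52 and -4.37 on the other 4 arrays, and all 6 markers were well above background on both arrays, against 2 or 3 on each of the others. The mean of 7 adrenal medulla markers was 3.08 and 2.16 on the 2 arrays and between -3.61 and -2.96 on the others. Among the 27 members on all 6 arrays, Timp4, Adamts9 and Mmp19 had their 2 highest values on these arrays, and Adamts15, Adamts19, Mmp7, Mmp16 and Mmp28 had their 2 lowest there. The part of the adrenal transcripts in these values was not tested. In whole ovaries fewer cells of a type and less RNA per cell cannot be told apart.

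**Figure D4:**
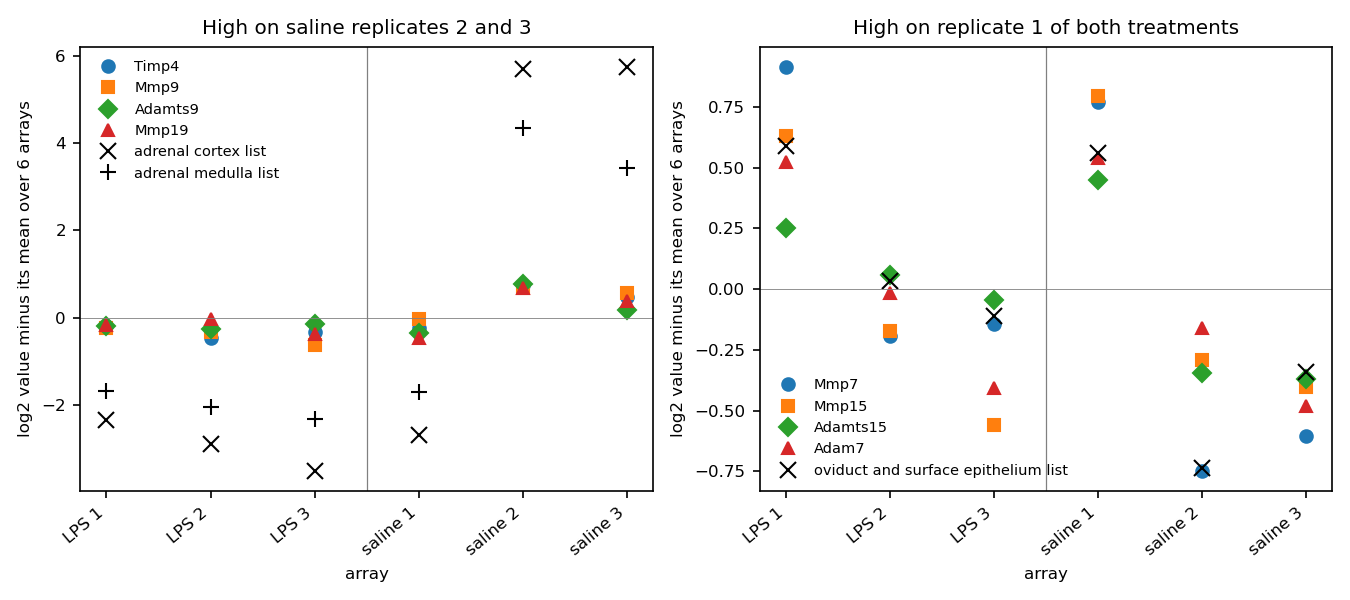
Log2 value of each gene on each array minus its own mean over the 6 arrays, with the mean of marker lists treated in the same way (crosses). Left, Timp4, Mmp9, Adamts9 and Mmp19 beside the adrenal cortex and medulla lists, all higher on saline replicates 2 and 3. Right, Mmp7, Mmp15, Adamts15 and Adam7 beside the oviduct and surface epithelium list, all higher on replicate 1 of both treatments.

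The gelatinases, which cut basement membrane collagen, differed from each other. Mmp2, made by stromal cells, read 4.08, 4.82 and 4.61 with LPS and 4.37, 4.33 and 4.22 with saline. Its difference was 0.20 (SE 0.23), with 0.041 to 0.41 when 1 array was left out, and a weaker second probe gave 0.35 (SE 0.35). Mmp9, which neutrophils and macrophages store or secrete, read -4.74, -4.82 and -5.12 with LPS and -4.53, -3.80 and -3.94 with saline. All LPS values were below all saline values, but only LPS replicates 1 and 3 and saline replicates 2 and 3 were well above background. The difference was -0.80 (SE 0.24), or 1.74-fold lower, with a limma p of 0.0145 and an adjusted p of 0.271. It was -0.43 without normalization (limma p of 0.348) and -0.43 with normexp correction (0.0157), and the slide row as a block gave a limma p of 0.115. Without saline replicate 2 or without saline replicate 3 it was -0.66 or -0.72, with limma p of 0.0511 and 0.0514, and without both, the arrays with adrenal transcripts, it was -0.36 (limma p of 0.264).

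Mmp12, the macrophage elastase, was the member that met the 2-fold criterion. It read -7.08, -7.14 and -7.59 with LPS and -6.40, -4.27 and -4.62 with saline. It was well above background on saline replicates 2 and 3 alone, and saline replicate 1 was about as dim as the LPS arrays. The mean was -7.27 ± 0.28 (SD, n = 3) with LPS and -5.10 ± 1.14 with saline. Since no LPS array was well above background, only a bound is given, 1.90-fold lower with LPS, with a limma p of 0.00584 and an adjusted p of 0.271. Its saline mean takes in the dim value of saline replicate 1 as read, so the bound is not strict. Leaving out saline replicate 1 left only the 2 saline arrays with adrenal transcripts. That fit raised the bound to 2.97-fold and gave an adjusted limma p of 0.00888. In it 290 probes had an adjusted p under 0.05, against 0 with all arrays. Leaving out any other array gave bounds from 1.43- to 2.08-fold. Normexp background correction took the fitted difference under 2-fold. Without saline replicates 2 and 3 neither treatment was well above background.

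Markers of macrophages and neutrophils, which express Mmp9 or Mmp12, were measured on the same arrays. The mean of the 12 macrophage markers was between -0.97 and -0.90 on the LPS arrays and between -1.32 and -1.10 on the saline arrays, so the means did not overlap. Of the 12, 9 were higher with LPS, of which Csf1r, Adgre1 and Mrc1 had an unadjusted limma p under 0.05. Cd68, Cd163 and C1qa had differences of -0.16, -0.16 and -0.074. Among named genes on all 6 arrays 53.6% were higher with LPS, and 194 of 10012 were so at that p. Mrc1 was well above background on 2 of the 3 saline arrays. The mean of the 8 measured neutrophil markers was between -4.87 and -4.12 with LPS and between -4.54 and -4.23 with saline, and 3 of them, Elane, Ngp and Csf3r, were well above background on no array. The part of these cells in the values of Mmp9 and Mmp12 was not tested. Mmp13, the main rodent collagenase, was well above background on LPS replicate 1 alone. It read -4.58, -5.21 and -5.57 with LPS and -5.00, -5.49 and -5.18 with saline, and the treatments overlapped.

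Mmp7, or matrilysin, a small epithelial protease, differed more between replicate numbers than between treatments. It read -0.29, -1.39 and -1.34 with LPS and -0.43, -1.95 and -1.80 with saline. Replicate 1 was the highest in both treatments, and the difference was 0.39 (SE 0.49), with 0.026 to 0.87 when 1 array was left out and -0.58 without both saline replicates 2 and 3. Mmp15, a membrane-type enzyme, behaved likewise, at 3.73, 2.92 and 2.54 with LPS and 3.89, 2.80 and 2.69 with saline, a difference of -0.066 (SE 0.43). Adam7, known from the epididymis, read 1.97, 1.43 and 1.04 with LPS and 1.98, 1.29 and 0.96 with saline. The mean of 7 markers of oviduct and surface epithelium was also highest on replicate 1 of both treatments, 2.80, 2.25 and 2.10 with LPS and 2.77, 1.47 and 1.87 with saline. Of the 16 marker lists 4 had this form, the others being those of kidney, skeletal muscle and testis. The part of such tissues in these values was not tested. In all, 4 of the 27 members on all arrays were highest on replicate 1 of both treatments, and 7, among them Timp1, Timp3, Adam17 and Mmp14, were lowest there.

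None of the other membrane-type enzymes had an unadjusted p under 0.05 with all arrays in the fit. Mmp14, the activator of pro-Mmp2, read 2.25, 2.67 and 2.54 with LPS and 2.37, 2.74 and 2.49 with saline. Its difference was -0.047, with an interval from -0.51 to 0.42 that left out 2-fold. Mmp16 read -0.86, -0.92 and -0.55 with LPS and -0.87, -1.23 and -1.55 with saline. Mmp17, which is held by a lipid anchor, had a difference of 0.36 (SE 0.21), and a second probe gave 0.15 (SE 0.21). Mmp24, known from the nervous system, was lower by its mean, with -1.62, -2.09 and -1.76 against -1.32, -1.14 and -1.76. The differences of Mmp16 and Mmp24 were 0.44 (SE 0.23) and -0.42 (SE 0.23), and the treatments overlapped in both. Leaving out 1 array took the p under 0.05 for Mmp16 (0.62 without saline replicate 1, limma p of 0.0303), Mmp17 (0.53 without LPS replicate 1, 0.0343) and Mmp24 (-0.59 without saline replicate 3, 0.0457).

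The remaining Mmp genes on all 6 arrays overlapped between treatments as well. Mmp11, or stromelysin-3, an enzyme of tissue remodelling, read -0.95, -0.16 and -0.42 with LPS and -1.05, -1.004 and -0.53 with saline, a difference of 0.35 (SE 0.27). Mmp19 read -3.65, -3.51 and -3.87 with LPS and -3.96, -2.81 and -3.10 with saline, a difference of -0.38 (SE 0.32), with -0.72 (limma p of 0.0143) without saline replicate 1 and 0.28 without both saline replicates 2 and 3. Mmp23, which is abundant in reproductive tissues, had a difference of 0.24 (SE 0.18). Mmp28, or epilysin, had one of 0.18 (SE 0.18). Over the family, 8 of 21 Mmp genes had a positive difference, 7 of them among the 11 on all 6 arrays.

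Of the catalytic Adam genes, the sheddases of the cell surface, Adam17, Adam15 and Adam9 had differences near 0, and Adam19 had a larger one. Adam17, which releases Tnf and the ligands of the Egf receptor, read -1.21, -0.68 and -0.55 with LPS and -1.36, -0.68 and -0.63 with saline. Its replicates moved in parallel in both treatments, and the difference was 0.071 (95% interval -0.60 to 0.75). Adam15 read 0.42, 0.49 and 0.27 with LPS and 0.29, 0.41 and 0.43 with saline, a difference of 0.017 with an interval from -0.37 to 0.40. Adam9 had a difference of -0.12 (SE 0.27). For Adam17, Adam15 and Adam9 a 2-fold change lay outside the interval.

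Adam19, a sheddase of neuregulins, had the second largest positive difference of the members on all arrays. It read 1.02, 0.92 and 1.28 with LPS and 0.28, 0.95 and 0.49 with saline. Saline replicate 2 lay among the LPS arrays, and the difference was 0.50 (SE 0.23, limma p of 0.0669, adjusted p of 0.337). The p fell under 0.05 with quantile normalization, normexp correction, robust variances or without saline replicate 2, where the difference was 0.69, and also without both saline replicates 2 and 3 (0.79), and a second, weaker probe gave 0.12 (SE 0.43). Adam1a, a fertilin subunit of sperm, read -3.17, -3.34 and -3.14 with LPS and -3.92, -3.22 and -3.32 with saline, a difference of 0.27 (SE 0.23), or 0.71 (limma p of 0.0419) without both saline replicates 2 and 3. Adam23, which lacks the catalytic site and acts in adhesion, was well above background on the LPS arrays and saline replicate 1, with a difference of -0.087 (SE 0.22). Adam11, of the same non-catalytic group, was well above background on no array.

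The genes that work with these families were described from a list of 78, of which 68 were measured. At the 2-fold criterion 1 was higher and 3 were lower with LPS, against the shares of all named genes given above, and none passed after adjustment. Serpini1, or neuroserpin, an inhibitor of tissue plasminogen activator, read -2.71, -2.48 and -2.40 with LPS and -2.38, -0.24 and -0.53 with saline. A2m, a broad protease inhibitor of plasma, read -1.15, -0.84 and -0.38 with LPS and -0.66, 1.17 and 1.15 with saline. Bcan, or brevican, an Adamts substrate of the nervous system, was well above background on saline replicates 2 and 3 alone. All 3 lower genes were highest on the saline arrays with adrenal transcripts. The gene that was higher, Adamtsl4, a secreted relative of the Adamts family without a protease domain, read -4.67, -4.45 and -4.66 with LPS and -6.33, -5.41 and -5.22 with saline. It was well above background on the LPS arrays alone, which gives a bound of at least 1.63-fold higher, with a limma p of 0.0119 and an adjusted p of 0.271.

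The substrates and partners of Adamts5 and Adam17 showed no member past 2-fold on the higher side. Vcan, or versican, the proteoglycan that Adamts1, Adamts4, Adamts5, Adamts9 and Adamts15 cut, had a difference of 0.56 (95% interval -0.14 to 1.26). Of 20 matrix substrates, 10 had a positive and 10 a negative difference, with a median of -0.0031. Tnf, the cytokine that Adam17 releases, read -2.50, -3.03 and -3.18 with LPS and -3.73, -3.17 and -3.69 with saline, a difference of 0.63 with a limma p of 0.0468. Of the 14 shed ligands and receptors, 3 had an unadjusted p under 0.05, against 15.6% of all named genes. Tnf was higher, and Areg and Btc, well above background on no array, were lower. In the plasminogen system, which activates several pro-Mmp enzymes, 2 of 11 genes had an unadjusted p under 0.05, Serpini1 and the undetected Serpinb2, both lower and again near that share, while Plat, Plau and Plg did not.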

How the data were processed

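Ovarian RNA was measured on 6 single-colour Agilent arrays, grouped by the treatment and replicate in the labels. The authors deposited the spot intensity values of each array from Agilent Feature Extraction 10.5.1.1, and a table of the series whose intensity values equal the processed signal within 0.497%. The processed signal is background-subtracted and holds a surrogate for dim spots. The paper names Cy3 as the dye and the labels name biotin. A normalization for the arrays is not given in the sources used here, beyond the tool name lumi without a role in the submitters' processing notes.

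From the deposited intensity values the log2 processed signal was taken, flagged spots were dropped and spots of a probe were averaged. The 75th percentile of each array over these probe values was subtracted. Over all non-control spots, flagged ones included, the 75th percentile of the processed signal lay between 2824 and 6754. No spot was saturated, and 66.3% to 76.0% of spots were well above background. A probe counted as well above background on an array when at least 0.5 of its spots were. The 3 LPS and 3 saline arrays were compared over 30367 probes with limma 3.58.1 (lmFit, eBayes; R 4.3.3), with Benjamini-Hochberg adjustment over all of them, and was tested on simulated data. The 2-fold and p under 0.05 criterion is that of the methods. Where a treatment was well above background on no array, the fold is a bound. It sets the mean of the brighter treatment against a mean over the arrays of the dimmer one. Per array that mean takes the higher of the lowest signal well above background and the probe's own.

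Probes were named through RefSeq accessions with a table of GRCr8, which gave 17998 probes a symbol. All arrays lay on 1 slide in 1 scan. LPS replicates 2 and 3 lay in row 1, and the other 4 arrays in row 2, so a fit with the row as a block compares LPS replicate 1 with the saline arrays. Deviations from the treatment means correlated at 0.298, 0.215 and 0.254 between arrays with the same replicate number. Between arrays with different numbers the correlations ranged from -0.271 to 0.160. Deviations cancel out within a treatment, so these values depend on each other. No label gives a reason for a pairing by replicate number, and the blocked fit is given as an alternative. Members named with values were those at the 2-fold criterion, the 12 with the largest difference among those on all 6 arrays, all Timp genes and a list by role, with Adam7 and genes given for their detection added after their values were seen. The members and all lists were chosen with earlier results of these data known. In all, 19 alternatives were tried. Array signal rather than read depth limits the precision. The qRT-PCR, western blotting and immunohistochemistry were not analysed here.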

Additional observations from a re-analysis of the deposited data

How the results depend on the processing

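Of the 30 named members with a difference, 13 alternatives of normalization, background, probe, test, block or arrays kept 332 of 387 values on the same side of 0 and of the threshold, and 36 values changed sign. Array number and signal over background limit all of these values, and the cause of each change was not tested unless the alternative's construction shows it. Shares of all named genes at an unadjusted p under 0.05, or without overlap, were counted only for the fit used above. The member counts below have no such share beside them and are not results about the members.

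Without normalization the median of all named genes moved from -0.03 to 0.34, and 1 member was higher at 2-fold (Adamts5), 3 members had an unadjusted p under 0.05, 5 did not overlap between treatments, and the median over members was 0.31. There Adam23 was 0.29, Adam9 0.26, Mmp14 0.33, Mmp15 0.31 and Timp1 0.33. With quantile normalization the counts were 7 with a p under 0.05 and 9 not overlapping, the median was 0.021, and Mmp13 was -0.046, Mmp14 0.031, Mmp15 0.022, Timp1 0.021 and Timp3 -0.031. Scaling to the median of detected probes gave Timp3 -0.0062. With normexp 0 members were lower at 2-fold, 5 had a p under 0.05 and 9 did not overlap, and Adamts4 was -0.025, Mmp13 -0.15, Mmp15 0.047 and Timp3 -0.0028. Leaving out dim probes gave 0 lower, 3 with a p under 0.05, 2 not overlapping and a median of 0.086. By construction the members on no array, and Mmp9, Mmp12 and Mmp13, were not in that fit. The mean over all probes of a gene gave Mmp15 0.056, and ordinary in place of moderated variances called 1 related gene, where limma called 4.

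With the replicate number as a block 14 members had an unadjusted p under 0.05, as many as without it, 15 did not overlap, and no count of members moved by more than 1.5 times. With the slide row as a block, which rests on LPS replicate 1 alone, the median over members was -0.21. Adam17 was -0.33, Adamts1 -0.22, Mmp11 -0.089, Mmp15 0.60, Mmp2 -0.23, Mmp23 -0.019, Timp2 -0.056 and Timp3 -0.23. With saline replicates 2 and 3 both left out, saline replicate 1 was assumed to vary like the LPS arrays, 2 members were lower at 2-fold, 7 had a p under 0.05, 31 did not overlap and 1 related gene was called. Adam23 was then 0.052, Adam9 0.36, Adamts15 -0.36, Adamts19 -0.030, Adamts9 0.17, Mmp13 -0.12, Mmp14 0.12, Mmp19 0.28, Mmp28 -0.064, Mmp7 -0.58, Timp1 0.018 and Timp2 -0.27. The 2 members lower at 2-fold in this fit were Adam32 and Mmp20, both well above background on no array. No fold is given for that class above. Mmp12, the member lower at 2-fold with all arrays, was not 1 of them, with a fitted difference of -0.87.

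Leaving out 1 array at a time gave 1 to 2 members lower at 2-fold (2 without saline replicate 1 or 3, and 2 without LPS replicate 1). The counts take in members on no array, for which no fold is given above. Over all named genes 111 to 654 of 15154 met the 2-fold criterion in either direction in these fits, against 267 with all arrays. An unadjusted p under 0.05 was reached by 8 to 18 members (9 without LPS replicate 2 or 3 and 8 without saline replicate 2). From 15 to 28 members did not overlap (28 without LPS replicate 1 and 25 without saline replicate 1). With fewer arrays in a group non-overlap is easier for every gene. From 0 to 4 related genes were called (0 without LPS replicate 2, 1 without saline replicate 2 or 3, 2 without LPS replicate 3). The median over members was -0.17 to -0.047. The range was -0.033 to 0.078 for Adam15, -0.16 to 0.27 for Adam17, -0.22 to 0.067 for Adam23, -0.35 to 0.036 for Adam9, -0.17 to 0.33 for Mmp13, -0.14 to 0.070 for Mmp14, -0.40 to 0.31 for Mmp15, -0.17 to 0.12 for Timp1, -0.11 to 0.27 for Timp2 and -0.28 to 0.20 for Timp3.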
